A study of Saccharomyces cerevisiae with 31 samples.

Results

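The transcripts of 34 genes for tRNA modification enzymes and their partner subunits were followed through a metabolic oscillation of budding yeast. The genes were taken by symbol, as methyltransferases, dihydrouridine synthases, pseudouridine synthases, deaminases, wybutosine synthesis enzymes and 2 others. All 34 had a probe set, 33 under the listed symbol and PUS3 under its other name DEG1, and all 34 passed the filter on dim probe sets. They stand among 5382 S. cerevisiae genes measured by 5422 probe sets. No member had several probe sets. The samples were 31 arrays from the strain CEN.PK122 in aerobic continuous culture, with no mutant, added agent or control group. The culture swung on its own between respiratory and reductive metabolism, which was followed by dissolved oxygen, with a period of 2 h. RNA was taken at intervals of 4 min between 12.53 and 14.53 h. The labelled phase angles run from 5.93 to 362.01 degrees, with nothing to tell respiratory from reductive angles, so times are given as angles.

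Transfer RNAs are among the most heavily modified RNAs of the cell. Methyl groups, reduced uridines and pseudouridines in the body of the molecule help it fold and keep it from decay, while modified bases in and beside the anticodon tune decoding. Most of these enzymes act while the tRNA matures in the nucleus and cytosol, some also or only in mitochondria, and several work as a catalytic subunit with a small non-catalytic partner. The arrays were primed from poly(A) tails and measured the mRNAs of the enzymes. Neither the tRNAs nor their modifications were measured.

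Deposited intensities had a median over S. cerevisiae probe sets of 1056 to 2142 per array, and all values below are intensities after quantile normalization, which gives every array the same distribution. Each angle has 1 array, so n is 31 for every fit, and the errors describe scatter around a fitted curve in 1 culture and 1 cycle. By the level of the poly-A spikes relative to the hybridization spikes, the arrays fell into batch 1 (16 arrays, -4.37 to -3.68 on the log2 scale) and batch 2 (15 arrays, -5.41 to -4.78). The same division is seen in the array numbers of the labels, whose meaning they do not state, and these sets of arrays are called batches here only for that reason. Arrays from 17.80 to 41.54 and from 100.88 to 148.35 degrees were all in batch 2. In a bulk culture, fewer cells with a transcript and less transcript per cell cannot be told apart.

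Most of the tRNA modification genes were high early in the cycle and low soon afterwards. Averaged over the 34 genes as centred log2 intensities, the level was 1.00 ± 0.23 from 0 to 60 degrees (SD, n = 6 arrays) and -0.33 ± 0.39 from 60 to 120 degrees (SD, n = 5 arrays). In the next windows of 60 degrees it was -0.56 ± 0.08 (120 to 180), -0.33 ± 0.05 (180 to 240), -0.15 ± 0.08 (240 to 300) and 0.17 ± 0.18 (300 to 360; SD, n = 5 arrays each). The mean thus came down over fewer arrays than it took to recover. The highest array lay between 5.93 and 53.41 degrees for 31 genes, against 39.7% of all probe sets tested, and it was the one at 29.67 degrees for 18 genes and at 41.54 degrees for 11. The lowest lay between 100.88 and 148.35 degrees for 27, against 24.9% of all probe sets tested. For 28 genes the lowest array came 20 to 44 min after the highest, a count not made over all probe sets. The largest fall between neighbouring arrays started between 41.54 and 89.01 degrees for 31 genes, against 37.3% of all probe sets tested. For 13 genes it was the step that began at 53.41 degrees, against 9.50% of all probe sets. The arrays from 53.41 to 89.01 degrees all belong to batch 1, so the steps among them lie within 1 batch. The step from 41.54 to 53.41 degrees crosses from batch 2 to batch 1. It was the largest fall for 6 genes, against 10.5% of all probe sets. The step from 89.01 to 100.88 degrees, the largest fall for TYW1, crosses from batch 1 to batch 2. The highest and the lowest array were both in batch 2 for 28 genes, which was likewise not counted over all probe sets.

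**Figure D1:**
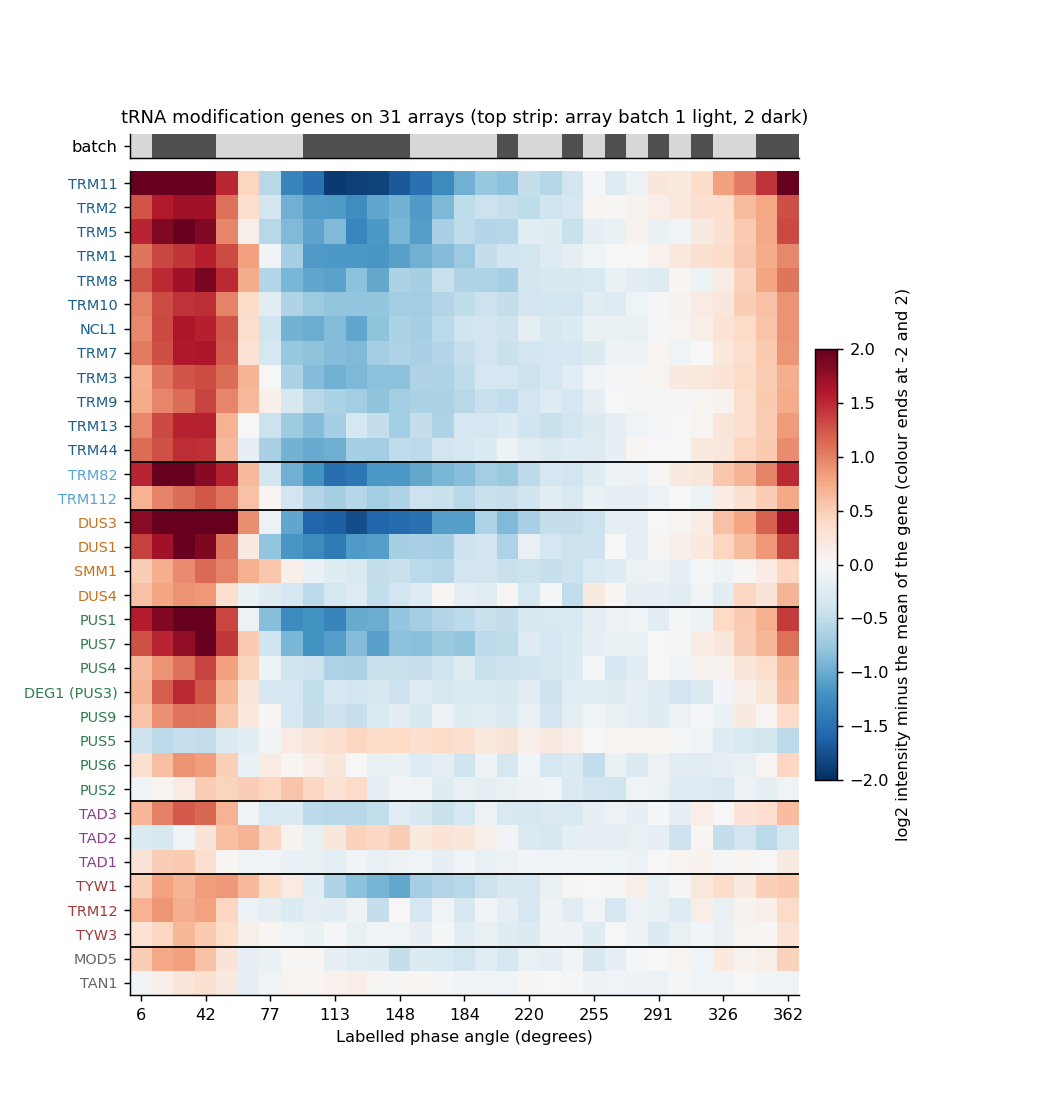
Each row is 1 gene and each column 1 of the 31 arrays in order of labelled phase angle (degrees). The colour is the log2 intensity minus the mean of the gene, lines divide the enzyme classes, and the top strip gives the array batch. Most rows are red up to 53.41 degrees and blue from 100.88 to 148.35 degrees, while PUS5 and TAD2 run the other way for part of the cycle.

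Variation with phase was tested by fitting 1 cosine per cycle with limma. The fitted range is the difference between the peak and trough of that cosine on the log2 scale, where 1 is 2-fold. All 34 genes passed at an adjusted p under 0.05, but so did 89.1% of all probe sets tested, so passing is near the background. The size of the range set them further from it: 23 of 34 (67.6%) reached a 2-fold fitted range, against 23.1% of all probe sets. Their median range was 1.38, against 0.54 for all probe sets. The fitted peak fell between 300 and 60 degrees for 30 of 34 genes, against 35.5% of all probe sets, and the 4 exceptions were PUS5, TAD2, PUS2 and TAN1. Terms at 2 and 3 times the angle, which describe a profile that is narrower or more lopsided than 1 cosine, passed for 33 genes, all but TAN1, against 86.1% of all probe sets. When neighbouring arrays were modelled as serially correlated (0.645), 31 genes passed, against 60.3% of all probe sets, and the 3 lost were DUS4, TRM12 and TAN1. All 23 genes with 2-fold ranges passed in that model. The fitted peak is that of 1 cosine and can lie away from the highest array, a distance its SE does not cover. TYW1 had a fitted peak at 0.945 degrees but its highest array at 53.41 degrees. For TAD2 these were 120.0 and 65.28 degrees. On the curve that includes the terms at 2 and 3 times the angle, TYW1 was highest at 42 degrees and TAD2 at 63 degrees.

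**Figure D2:**
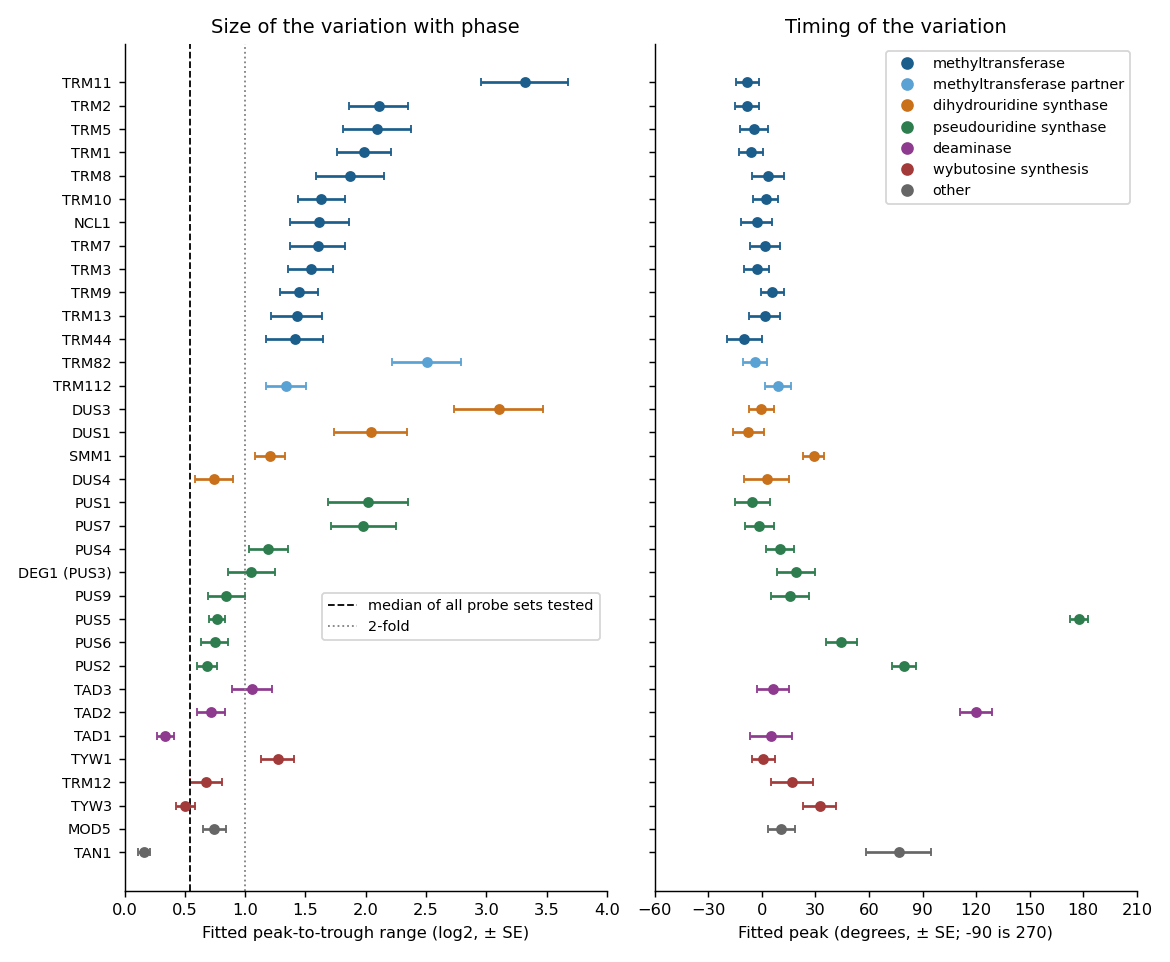
The left panel gives the fitted peak-to-trough range of each gene (log2) and the right panel its fitted peak (degrees), both with SE and coloured by class. The 12 methyltransferases all lie above 2-fold and have fitted peaks near 0 degrees, although their highest arrays were at 29.67 or 41.54 degrees. PUS5, with a fitted peak at 177.8 degrees, stands farthest from the others in timing.

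The 12 methyltransferases, which transfer methyl groups from S-adenosylmethionine to bases or riboses, all had ranges above 2-fold, from 1.41 for TRM44 to 3.32 for TRM11, with a median of 1.62. All 12 had fitted peaks between 300 and 60 degrees and reached their lowest array 24 to 32 min after the highest. TRM11 encodes the catalytic subunit that methylates a guanine in the D arm. Its intensity was lowest at 162 (112.75 degrees), had a median of 509.7 and was highest at 3914 (29.67 degrees), a 24.2-fold span. The arrays up to 53.41 degrees and the last array were high and those from 89.01 to 172.09 degrees low. Its fitted range was 3.32 ± 0.36 with a peak at 352 ± 6.37 degrees (SE, n = 31; adjusted p = 1.85e-08, limma).

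TRM2 encodes the enzyme that makes the methylated uridine of the T loop. Its intensity ran from 612 at 124.62 degrees through a median of 1464 to 4706 at 29.67 degrees. High arrays were again the early ones, and the fitted range was 2.11 ± 0.24 with a peak at 352 ± 6.72 degrees (SE; adjusted p = 4.17e-08, limma). TRM5 methylates the guanine beside the anticodon, a modification that keeps the ribosome in frame. It ran from 172 at 124.62 degrees through 378 to 1786 at 29.67 degrees, 10.4-fold, with a fitted range of 2.09 ± 0.28 and a peak at 356 ± 7.94 degrees (SE; adjusted p = 5.87e-07, limma).

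The remaining 9 methyltransferases had smaller ranges, with the highest array at 29.67 or 41.54 degrees and the lowest between 100.88 and 136.48 degrees. TRM1, which makes dimethylguanosine in cytosolic and mitochondrial tRNAs, had a range of 1.99 ± 0.23 (SE), and TRM8, the catalytic subunit for methylguanosine in the variable loop, 1.87 ± 0.28 (SE). TRM10, which methylates a guanine near the acceptor stem, had 1.63 ± 0.19, and NCL1, the gene for the methylcytosine enzyme also called Trm4, 1.62 ± 0.24 (SE). TRM7, a ribose methyltransferase of the anticodon loop, had 1.60 ± 0.23, and TRM3, which methylates a ribose in the D loop, 1.54 ± 0.19 (SE). TRM9, which completes a methyl ester on wobble uridines, had 1.45 ± 0.16 (SE). TRM13, a ribose methyltransferase of the acceptor stem, had 1.43 ± 0.21, and TRM44, which methylates a uridine ribose in serine tRNAs, 1.41 ± 0.24 (SE). TRM13 (YOL125W) and TRM11 (YOL124C) lie side by side on chromosome XV in the S288C gene table, and they were the only neighbouring genes on the list. Their fitted ranges were 1.43 and 3.32, and the difference between them was not tested.

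TRM82 and TRM112 encode partner subunits without catalytic activity of their own. TRM82, the WD-repeat partner of Trm8, ran from 373 at 112.75 degrees through a median of 895 to 4325 at 29.67 degrees. Its early arrays were high and those near 113 degrees low, with a fitted range of 2.51 ± 0.28 and a peak at 356 ± 6.64 degrees (SE; adjusted p = 3.34e-08, limma). TRM112 encodes a small zinc-binding protein that activates 4 methyltransferases, Trm9 and Trm11 for tRNA, Bud23 for rRNA and Mtq2 for a translation termination factor. It ran from 1443 at 136.48 degrees through 2077 to 5527 at 41.54 degrees. Early arrays were high, and the fitted range was 1.34 ± 0.17 with a peak at 8.91 ± 7.21 degrees (SE; adjusted p = 1.25e-07, limma).

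Whether partner transcripts varied to the same extent was tested on the log2 ratio within each array, for 12 combinations of a complex, a pathway or a homologous gene. The TRM11/TRM112 ratio varied by 2.07 ± 0.22, highest near 341 degrees (SE; adjusted p = 1.03e-08, limma), and still passed with serially correlated arrays (adjusted p = 7.28e-06). TRM11 thus swung more than the gene of its activator. The BUD23/TRM112 ratio varied by 0.56 ± 0.11 (SE; adjusted p = 9.88e-05, limma; 0.0421 with serially correlated arrays). The TRM9/TRM112 ratio varied by 0.13 ± 0.04, the smallest of the 12 ratios after quantile normalization (SE; adjusted p = 0.0327, limma). On the deposited scale it varied by 0.33 (adjusted p = 0.000444, limma), more than the 0.27 of TRM7/RTT10 there. The call after quantile normalization was lost with serially correlated arrays (adjusted p = 0.657) and within either batch (0.36 and 0.0884). It was also lost without any 1 of 5 arrays, at 124.62, 136.48, 160.22, 172.09 or 314.51 degrees (adjusted p up to 0.0859). The call on the deposited scale was not tested in these settings. Across the 31 arrays, which share their scaling and neighbour each other in time, TRM9 and TRM112 had a correlation of 0.99.

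The TRM8/TRM82 ratio varied by 0.69 ± 0.07 and was highest near 156 degrees, where both transcripts were low (SE; adjusted p = 1.35e-08, limma; 0.0175 with serially correlated arrays). TRM82 had a range of 2.51 and its catalytic partner TRM8 one of 1.87. Trm7 works with Rtt10, also called Trm734, or with Trm732, each for a different ribose of the anticodon loop. The TRM7/RTT10 ratio varied by 0.29 ± 0.07 (SE; adjusted p = 0.00192, limma) and the TRM7/TRM732 ratio by 0.50 ± 0.09 (SE; adjusted p = 2.74e-05, limma). Neither passed with serially correlated arrays (adjusted p = 0.112 for RTT10 and 0.0577 for TRM732), and the TRM7/RTT10 ratio did not pass within batch 1 (adjusted p = 0.0715; range 0.21, against 0.48 within batch 2).

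**Figure D3:**
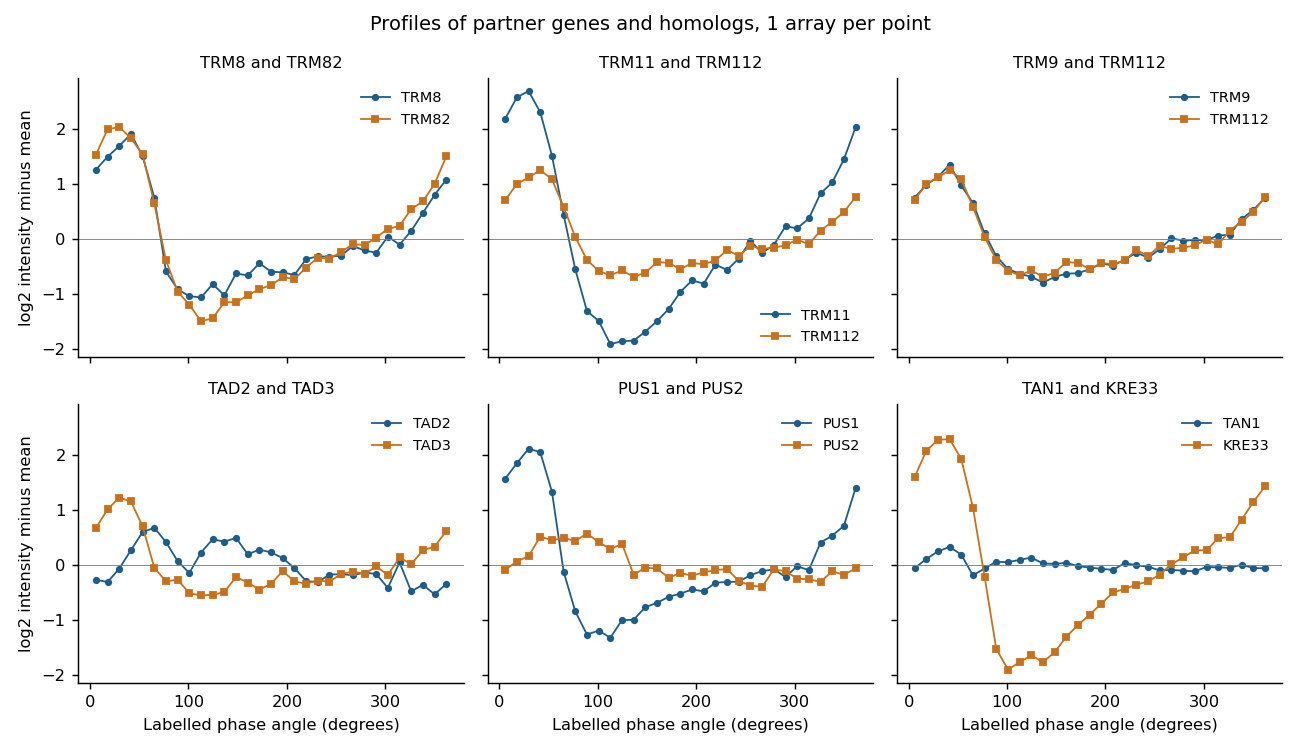
Each panel shows 2 genes as log2 intensity minus the mean of the gene against phase angle (degrees), 1 array per point. TRM9 and TRM112 nearly overlie each other, TRM11 swings more than TRM112, TAD2 is below TAD3 up to 53.41 degrees and above it from 65.28 to 207.69 degrees, and TAN1 is nearly flat beside KRE33.

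Dihydrouridine synthases reduce uridines of the D loop and variable loop, which loosens the RNA backbone there. Of the 4 genes, 3 had ranges of 2-fold or more, and all 4 had fitted peaks between 300 and 60 degrees. DUS3, for the variable loop, ran from 165 at 124.62 degrees through a median of 495 to 3658 at 29.67 degrees, a 22.2-fold span. The early arrays were high and those from 100.88 to 160.22 degrees low, and its fitted range of 3.10 ± 0.37 was next after TRM11 among the 34 genes (SE; peak 359.7 ± 6.97 degrees; adjusted p = 7.27e-08, limma). DUS1, for the D loop, ran from 246 at 112.75 degrees through 578 to 2680.0 at 29.67 degrees. Its profile had the same shape with a range of 2.04 ± 0.30 and a peak at 353 ± 8.70 degrees (SE; adjusted p = 2.51e-06, limma).

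SMM1 encodes the enzyme also called Dus2, for another D loop position, and had the latest fitted peak of the 4. Its intensity was lowest at 718 (172.09 degrees), had a median of 973 and was highest at 2351 (41.54 degrees). It stayed above its mean through 89.01 degrees and came down more gradually, with a range of 1.203 ± 0.124 and a peak at 29.1 ± 5.97 degrees (SE; adjusted p = 7.02e-09, limma). DUS4, for further D loop positions, had a range of 0.74 ± 0.16 (SE; adjusted p = 0.00042, limma). Its range was 1.22 on the deposited scale and 1.18 within batch 2, and it did not pass within batch 1 (range 0.38, adjusted p = 0.162) or with serially correlated arrays (adjusted p = 0.0694).

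Pseudouridine synthases turn uridine into its more rigid isomer without a cofactor. The 8 genes were less alike than the methyltransferases: 4 had ranges of 2-fold or more, the median range was 0.95, and their fitted peaks spread from 355 degrees for PUS1 to 177.8 degrees for PUS5. PUS1, whose enzyme modifies several positions of nuclear tRNAs and also a spliceosomal RNA, ran from 345 at 112.75 degrees through a median of 742 to 3734 at 29.67 degrees. Early arrays were high and the range was 2.02 ± 0.33 with a peak at 355 ± 9.65 degrees (SE; adjusted p = 1.22e-05, limma). PUS7, which modifies tRNAs, a spliceosomal RNA and some mRNAs, ran from 498 at 100.88 degrees through 1026 to 4503 at 41.54 degrees. High arrays were the early ones here too, with a range of 1.98 ± 0.27 and a peak at 358.7 ± 8.02 degrees (SE; adjusted p = 6.69e-07, limma).

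PUS4 makes the T loop pseudouridine found in nearly all tRNAs, in the nucleus and in mitochondria. Its intensity ran from 588 at 124.62 degrees through 784 to 2319 at 41.54 degrees, again with the early arrays high. The range was 1.19 ± 0.16 with a peak at 10.2 ± 7.79 degrees (SE; adjusted p = 4.28e-07, limma). PUS3, for the anticodon arm, had a range of 1.05 ± 0.19 (SE), just above 2-fold, and PUS6, for another position of the anticodon stem, 0.75 ± 0.11 with a peak at 44.5 ± 8.68 degrees (SE).

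PUS2, PUS9 and PUS5 serve mitochondrial RNA only: Pus2 and Pus9 modify mitochondrial tRNAs, and Pus5 the mitochondrial large ribosomal RNA. None of the 3 had a 2-fold range, and their median was 0.77, against 1.43 for the other 31 genes. PUS5 ran opposite to most members, lowest at 488 on the last array (362.01 degrees), with a median of 726 and highest at 947 (124.62 degrees). It was low up to 65.28 degrees and high from 112.75 to 183.96 degrees, where most members were low. Its range was 0.77 ± 0.07 with a peak at 177.8 ± 4.98 degrees (SE; adjusted p = 2.80e-10, limma), and it passed within batch 1 (0.62) and batch 2 (0.94) and with serially correlated arrays (adjusted p = 5.89e-06). On the deposited scale, where the array median itself had a fitted range of 0.37 and a peak at 329.7 degrees, its range was 0.54 and its peak 223 degrees.

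PUS2, a homolog of PUS1, kept above its mean from 17.80 to 124.62 degrees and dropped on the next array. Its range was 0.68 ± 0.08 with a peak at 79.7 ± 6.83 degrees (SE; adjusted p = 9.97e-08, limma), and on the deposited scale the peak lay at 18.3 degrees. The range was 0.41 with median centring and 0.36 with scaling by the hybridization spikes. The PUS1/PUS2 ratio varied by 2.07 ± 0.35 (SE; adjusted p = 1.99e-05, limma; 0.00115 with serially correlated arrays). PUS9 was high on the early arrays like the genes of the cytosolic enzymes, with a range of 0.84 ± 0.15 and a peak at 16.0 ± 10.7 degrees (SE), and on the deposited scale the range was 1.28.

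**Figure D4:**
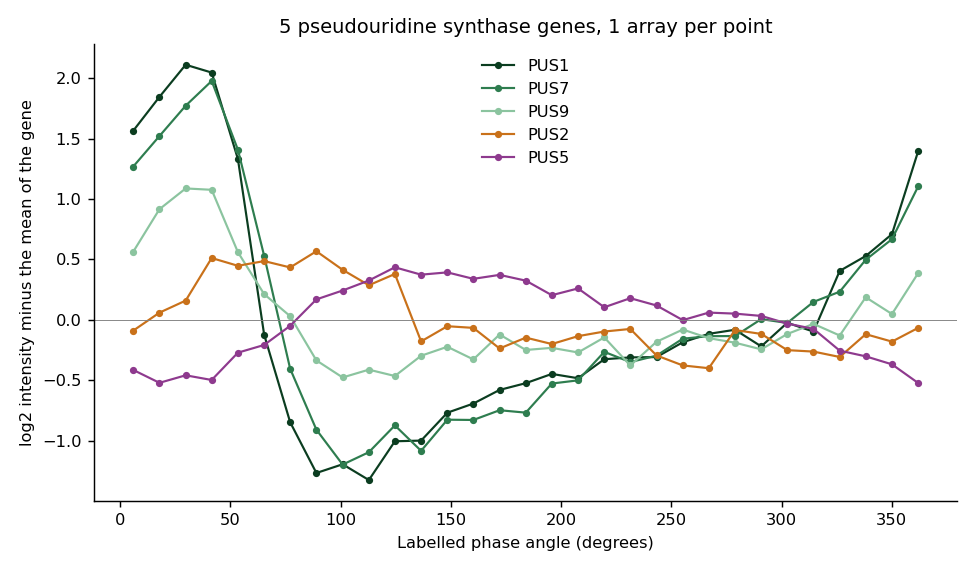
Log2 intensity minus the mean of the gene is plotted against phase angle (degrees) for 5 pseudouridine synthase genes, 1 array per point. PUS1 and PUS7 fall from about 2 to below -1 between 41.54 and 100.88 degrees, PUS9 follows with a smaller swing, PUS2 stays high through 124.62 degrees, and PUS5 is highest where PUS1 and PUS7 are low.

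Deaminases convert adenosine to inosine. Tad2 and Tad3 form the essential enzyme for wobble inosine, which lets 1 anticodon read several codons, and Tad1 makes the inosine next to the anticodon of alanine tRNA. With quantile normalization TAD1 and TAD3 had fitted peaks at 5.21 and 6.29 degrees, and TAD2 apart from them at 120.0 degrees. TAD3, for the structural subunit, ran from 415 at 112.75 degrees through a median of 543 to 1422 at 29.67 degrees. Its early arrays were high, with a range of 1.05 ± 0.17 and a peak at 6.29 ± 9.19 degrees (SE; adjusted p = 5.73e-06, limma). TAD2, for the catalytic subunit, ran from 342 at 350.11 degrees through 473 to 790.5 at 65.28 degrees. It was below its mean from 5.93 to 29.67 degrees, where TAD3 was high, and above it from 112.75 to 195.82 degrees, where TAD3 was low. At 41.54 and 53.41 degrees both genes were above their means (TAD2 by 0.26 and 0.59, TAD3 by 1.15 and 0.70, log2). Their correlation across the arrays was -0.20. The range of TAD2 was 0.72 ± 0.11 with a peak at 120.0 ± 8.97 degrees (SE; adjusted p = 6.59e-06, limma). On the deposited scale its range was 0.13 and it did not pass (adjusted p = 0.701), nor when arrays were scaled by the hybridization spikes (range 0.19, adjusted p = 0.43).

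The TAD2/TAD3 ratio is taken within an array and does not depend on a common scaling. It varied by 1.49 ± 0.19 and was highest near 160 degrees (SE; adjusted p = 2.11e-07, limma), by 1.53 on the deposited scale, and by 1.21 within batch 1 and 1.96 within batch 2. It also passed with serially correlated arrays (adjusted p = 0.000525). The transcripts of the 2 subunits thus changed unequally over the cycle under each of these settings. TAD1 ran from 837 at 112.75 degrees through 923 to 1379.6 at 29.67 degrees. Only the early arrays stood above the rest, and its range of 0.34 ± 0.07 was the next smallest after TAN1 with quantile normalization (SE; peak 5.21 ± 12.0 degrees; adjusted p = 0.000226, limma). That value moved to 0.80 on the deposited scale, where TAD2, PUS5 and PUS2 had smaller ranges, to 0.64 with scaling by the hybridization spikes and to 0.19 within batch 1.

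Wybutosine is a bulky tricyclic base beside the anticodon of phenylalanine tRNA, built stepwise from the guanine methylated by Trm5. TYW1, whose iron-sulfur enzyme forms the tricyclic ring, ran from 946 at 148.35 degrees through a median of 1952 to 3486 at 53.41 degrees. It stayed above its mean to 89.01 degrees and was low from 112.75 to 148.35 degrees, with a range of 1.27 ± 0.14 and a peak at 0.945 ± 6.46 degrees (SE; adjusted p = 2.18e-08, limma). TRM12, also called Tyw2, adds the side chain. It ran from 509.7 at 136.48 degrees through 657 to 1314 at 17.80 degrees, with a range of 0.68 ± 0.13 and a peak at 17.0 ± 11.7 degrees (SE; adjusted p = 0.000164, limma). Its range was 1.10 on the deposited scale, and it did not pass within batch 1 (range 0.41, adjusted p = 0.0902) or with serially correlated arrays (adjusted p = 0.0604).

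TYW3, which methylates the intermediate, ran from 731 at 290.77 degrees through 834 to 1399 at 29.67 degrees. The early arrays were high and the rest nearly level, with a range of 0.50 ± 0.08 and a peak at 32.4 ± 9.30 degrees (SE; adjusted p = 7.89e-06, limma), and on the deposited scale the range was 0.85. PPM2, a further gene of the pathway, was kept in the list of other tRNA modification genes described below. Its range was 2.07 ± 0.30 with a peak at 342 degrees (SE; adjusted p = 1.31e-06, limma), and no ratio with it was tested. The 4 pathway genes compared here, TRM5, TYW1, TRM12 and TYW3, did not swing by the same amount. The TYW1/TRM5 ratio varied by 0.84 ± 0.25 (SE; adjusted p = 0.00873, limma), the TRM12/TYW1 ratio by 0.65 ± 0.16 (SE; adjusted p = 0.00195, limma) and the TYW3/TYW1 ratio by 0.88 ± 0.13 (SE; adjusted p = 1.54e-06, limma). With serially correlated arrays the TYW3/TYW1 ratio passed (adjusted p = 0.012), while TYW1/TRM5 (0.0884) and TRM12/TYW1 (0.331) did not. The TYW1/TRM5 ratio did not pass within batch 1 either (range 0.75, adjusted p = 0.0991), and it varied by 1.40 within batch 2.

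MOD5 and TAN1 stand outside these classes. MOD5, whose enzyme adds an isopentenyl group beside the anticodon in cytosolic and mitochondrial tRNAs, ran from 394 at 148.35 degrees through a median of 526 to 965 at 29.67 degrees. Its early arrays were high, with a range of 0.75 ± 0.10 and a peak at 11.0 ± 7.63 degrees (SE; adjusted p = 3.04e-07, limma). On the deposited scale its range was 1.19 and its peak 344 degrees. TAN1 encodes the adaptor that brings the acetyltransferase Kre33 to tRNA for acetylcytidine. It ran from 974 at 65.28 degrees through 1087 to 1395 at 41.54 degrees, with its highest and lowest arrays 8 min apart. With quantile normalization its range of 0.16 ± 0.05 was the smallest of the 34 (SE; peak 76.6 ± 18.1 degrees; adjusted p = 0.0177, limma). On the deposited scale its peak turned to 345 degrees with a range of 0.43, and TAD2 had a smaller range there (0.13). TAN1 did not pass within batch 1 (adjusted p = 0.729) or with serially correlated arrays (adjusted p = 0.512). KRE33, which also acetylates rRNA, had a range of 2.92 ± 0.36, and the TAN1/KRE33 ratio varied by 2.91 ± 0.35 (SE; adjusted p = 8.04e-08, limma; 2.63e-05 with serially correlated arrays).

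Other genes of tRNA modification were described from a list of 38, of which 37 were measured and IKI3 was not analysed here. Of the 37, 35 varied with phase (94.6%, against 89.1% of all probe sets). Ranges of 2-fold or more were found for 14 (37.8%, against 23.1% of all probe sets). The median range was 0.65, against 0.54 for all probe sets. SIT4, a phosphatase gene with many other roles, had a range of 0.10 (adjusted p = 0.147, limma), and UBA4, for the activating enzyme of the Urm1 sulfur carrier, one of 0.07 (adjusted p = 0.464, limma). The largest ranges were 2.92 for KRE33 and 2.65 ± 0.28 for TRM6, also called GCD10 and encoding a subunit of the methyladenosine enzyme (SE; adjusted p = 1.15e-08, limma). Fitted peaks lay between 300 and 60 degrees for 29 of the 35. Of all probe sets tested, 35.5% varied and peaked there. Of the 6 others, 4 encode mitochondrial enzymes: SLM3 peaked at 178.8 degrees, QRI7 at 145, MSS1 at 121 and MTO1 at 73.9 degrees.

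A comparison list of 15 held 14 genes for rRNA modification enzymes and MTQ2, whose enzyme shares the Trm112 partner but methylates a termination factor. All 15 varied with phase, but so did 89.1% of all probe sets. Ranges of 2-fold or more were found for 12 (80.0%, against 23.1% of all probe sets). The median was 2.24, against 1.38 for the 34 tRNA modification genes and 0.54 for all probe sets. RRP8, a base methyltransferase of the large subunit rRNA, had a range of 3.00 ± 0.33 and BMT5, another, 2.94 ± 0.33 (SE). MRM1 and MTQ2 had the smallest ranges, 0.39 ± 0.07 and 0.40 ± 0.06 (SE), and MRM2, a methyltransferase of mitochondrial rRNA, peaked at 173 degrees. As a description across 31 neighbouring arrays that share their scaling, the correlation with the mean of these 15 genes was above 0.9 for 22 of the 34 genes (14.1% of all probe sets tested), -0.97 for PUS5 and 0.28 for TAN1.

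The fitted ranges differed between the batches when each batch was fitted alone. Batch 2 holds the arrays where most members were highest and lowest. The range was larger within batch 2 than within batch 1 for 32 of the 34 genes, all but TAD2 and PUS2. How many of all probe sets had a larger range within batch 2 was not counted. For TRM11 the range was 2.47 within batch 1 and 4.27 within batch 2, and over the methyltransferases the medians were 1.21 and 2.15. Over all 31 arrays the range of TRM11 was 3.32, both with and without a batch term. Within batch 1 the range was 1.35 for DUS1 and 0.55 for PUS9. It was now below 2-fold for PUS3 (0.61), TAD3 (0.66), PUS4 (0.85) and the methyltransferase gene TRM44 (0.998). The batches sampled different angles, and the part of the batch in these sizes was not tested apart from them. Fitted peaks moved less: the median difference between batches was 10.0 degrees and the largest 35.5 degrees.

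**Figure D5:**
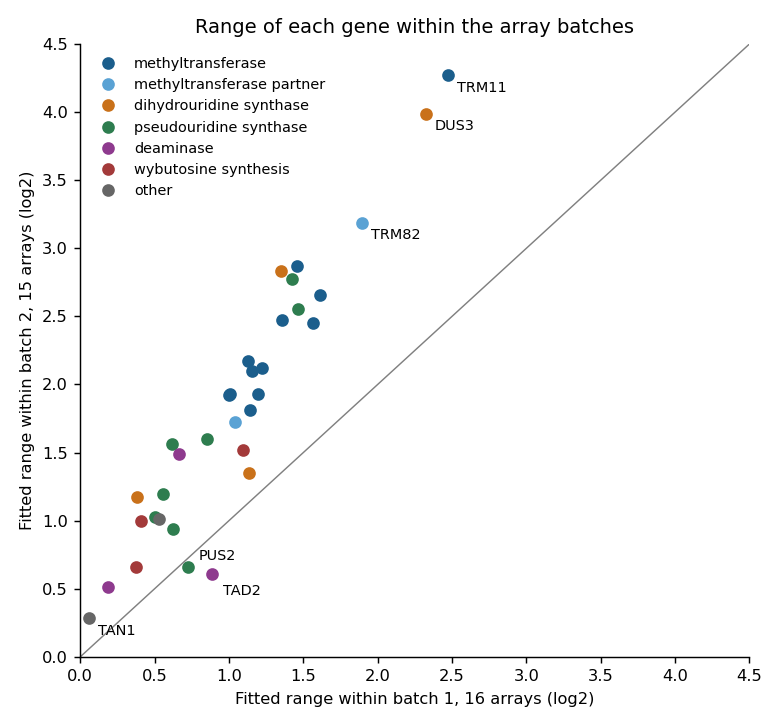
Each point is 1 of the 34 genes, with its fitted range within batch 1 (16 arrays, horizontal) and within batch 2 (15 arrays, vertical), both log2, coloured by class. All points but TAD2 and PUS2 lie above the line of equal ranges.

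The first and last arrays, at 5.93 and 362.01 degrees, lie about 1 cycle apart and are the only near repeat of an angle. The last minus the first array had a median size of 0.09 over the 34 genes on the log2 scale, against 0.06 for all probe sets tested. The largest was -0.32, for TRM12, which was lower on the last array, and 95% of all probe sets differed by less than 0.29. The first array was in batch 1 and the last in batch 2, so cycle and batch cannot be told apart in this difference.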

How the data were processed

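Per the labels' protocols, cDNA was primed with oligo(dT) on total RNA, made into biotinylated cRNA and hybridized to Affymetrix Yeast 2.0 arrays. The authors deposited linear probe set intensities from GCOS, the Affymetrix software named in the submitters' processing notes, with its version and scaling not given in the sources used here. Of 10928 probe sets, 5498 had 1 S. cerevisiae symbol in the array annotation, with 12 symbols updated from the R64 gene table of strain S288C. Intensities were taken to log2 and quantile normalized over these probe sets. A filter dropped 76 probe sets whose median did not exceed 17.04, the 95 percentile point of 1747 probe sets for genes of other organisms. limma 3.58.1 in R 4.3.3 fitted the cosine and sine of the phase angle, with a moderated F-test and Benjamini-Hochberg adjustment over all 5422 probe sets (5434 features with the ratios) at 0.05. Serial correlation was modelled by generalized least squares with its value estimated over all probe sets. SEs came from the moderated variance by the delta method. Figures used matplotlib 3.10.9. The fits were also run on simulated cosines with independent noise and on flat profiles with serially correlated noise. Lopsided profiles were not simulated, so these runs do not bear on the fitted peaks of such profiles.

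The members, lists, ratios and alternatives were chosen with earlier results of these data known. Full values are given for the 3 largest ranges in each class, the 3 smallest over all, members peaking over 90 degrees from the median of their class and the 5 largest ranges of the faster terms. Partner combinations came from textbook knowledge. Promoter and protein sequences were not used here.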

Additional observations from a re-analysis of the deposited data

How the results depend on the processing

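Across the alternatives run for all 34 genes together, 31 to 34 varied with phase, 19 to 27 had ranges of 2-fold or more, and 26 to 34 had faster variation. The median fitted range moved to 1.74 on the deposited scale, 1.56 with scaling by the hybridization spikes, 1.07 within batch 1 and 1.77 within batch 2, from 1.38. Leaving out each array in turn gave 34 varying genes every time, 21 to 23 with 2-fold ranges, a median range of 1.29 to 1.42 and 33 with faster variation. The count of 21 came without the array at 17.80, 29.67 or 41.54 degrees, and also without the 5 dimmest arrays. TAN1 turned its peak by over 90 degrees on the deposited scale (range 0.43, peak 345 degrees) and with the hybridization spikes (range 0.27, peak 328 degrees); the cause was not tested. The TAN1 fitted range also missed the threshold under median centring (adjusted p = 0.0758, limma), with a linear time trend (0.456) and without the 5 dimmest arrays (0.0897). A batch term, the first 3 harmonics, no filter and a filter at 100 changed no call of a single gene. The lowest-median probe set gave no value, since no member has several. No paired analysis was possible because the labels form 1 group. The number of arrays, 1 culture and 1 cycle limit every result.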
